A study of Mus musculus with 6 samples.

Results

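Nodal and bone morphogenetic protein (BMP) signalling was followed in RW4 mouse embryonic stem cells through 9 genes: the ligand genes Nodal and Bmp4, the co-receptor gene Tdgf1, the inhibitor genes Lefty1, Lefty2 and Smad7, and the target genes Id1, Id2 and Id3. The genes were chosen by name, and each was read from the probe set that the array annotation gives to its symbol. All 9 had exactly 1 probe set, out of 19938 genes measured. The series holds 3 groups of 2 arrays (6 in all): RW4 cells with no agent, RW4 cells with 1 µM 4-hydroxytamoxifen (4OHT), and RW4 cells with 1 µM Shld1. The labels give the induction system as WT for the untreated cells, ERT2 for 4OHT and FKBP for Shld1. 4OHT is an estrogen receptor ligand used to activate ERT2 fusion proteins, and Shld1 is a synthetic ligand that protects destabilised FKBP fusions from degradation. They do not say whether the treated cells carried a fusion protein, how long the agents were given, or whether the duplicates were separate cultures, so p-values measure only the spread between these arrays, which may be technical. Every group had the same medium, which held 10% calf serum, 10% fetal bovine serum and 1000 U/mL of leukemia inhibitory factor. Serum can itself carry BMP activity.

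Nodal and BMPs are secreted ligands of the TGF-β family. Nodal binds activin receptors together with the co-receptor encoded by Tdgf1 (Cripto) and acts through SMAD2 and SMAD3, while BMP4 binds BMP receptors and acts through SMAD1, SMAD5 and SMAD9. Both branches switch on their own inhibitors: Lefty1 and Lefty2 are Nodal targets whose products block Nodal, and Smad7 encodes an inhibitory SMAD. Id1, Id2 and Id3 are direct BMP targets that encode inhibitors of basic helix-loop-helix factors, and in mouse embryonic stem cells BMP and Id proteins act with leukemia inhibitory factor to restrain differentiation.

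The cells showed the markers of their label. All 7 stem cell markers lay above the background level, from 7.28 (Klf4) to 11.6 (Tdgf1) on the log2 scale, with array means of 9.66 to 9.89. Background here is 3.71, the 95th percentile of the mean signal of 1027 olfactory receptor genes. Markers of other cells were partly above that level: 6 of 7 for endoderm, 3 of 6 measured for primitive streak and mesoderm, 5 of 7 for trophoblast, 5 of 7 for fibroblasts and 5 of 6 for neural cells. Afp, Cdx2, Elf5, Kdr, Mesp1, Gsc, Postn, Dcn and Nes were below it. The highest marker of each list, in the same order, was Dab2 (7), Hand1 (4.52), Tfap2c (7.64), Thy1 (5.78) and Tubb3 (8.34). Tubb3 and Tfap2c thus lay above the stem cell marker Klf4. The array means of these lists ranged over 4.98 to 5.14, 3.79 to 3.98, 4.60 to 4.81, 3.97 to 4.22 and 5.02 to 5.29, and their part in the results was not tested. Over all probe sets the signal was spread less widely on 4OHT replicate 1 (SD 2.29) and on Shld1 replicate 2 (SD 2.24) than on the remaining arrays (SD 2.33 to 2.35).

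The 250 bases before the transcription start were searched in the 5 of the 9 genes that have an entry in the RefSeq promoter table (GRCm38.p6). The search was meant to show what the sequence just before the start of these genes looks like. The motifs were the SMAD box CAGAC, the GC-rich motif GGCGCC bound by BMP SMADs, and TGTGNATT, bound by the Nodal partner FOXH1, each searched on both strands. Id2, Id3 and Tdgf1 held at least 1 match and are printed 5′ to 3′ on the gene's strand, with the matched letters in capitals.
Id2 chr12:25096093-25096342 (minus strand): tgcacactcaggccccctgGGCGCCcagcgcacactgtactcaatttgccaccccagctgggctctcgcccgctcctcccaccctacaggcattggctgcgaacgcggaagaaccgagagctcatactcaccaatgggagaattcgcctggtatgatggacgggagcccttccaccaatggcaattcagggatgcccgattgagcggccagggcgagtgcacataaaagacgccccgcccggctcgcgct
Id3 chr4:136143572-136143821 (plus strand): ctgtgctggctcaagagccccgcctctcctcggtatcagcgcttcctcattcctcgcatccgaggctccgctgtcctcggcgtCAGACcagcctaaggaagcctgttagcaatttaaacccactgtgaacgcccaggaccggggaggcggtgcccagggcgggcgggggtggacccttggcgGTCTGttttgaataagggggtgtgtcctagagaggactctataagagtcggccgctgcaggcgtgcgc
Tdgf1 chr9:110946159-110946408 (minus strand): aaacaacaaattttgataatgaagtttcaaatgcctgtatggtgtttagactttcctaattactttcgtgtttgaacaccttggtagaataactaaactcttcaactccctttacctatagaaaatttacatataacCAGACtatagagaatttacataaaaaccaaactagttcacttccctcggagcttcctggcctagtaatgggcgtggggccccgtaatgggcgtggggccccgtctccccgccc
The Id2 window held GGCGCC 231 to 226 bases before the start, a motif found in 9.59% of the 32851 promoter windows of this length. The Id3 window held the SMAD box at 167 to 163 and, on the other strand, at 68 to 64 bases before the start. The Tdgf1 window held it at 113 to 109 bases. The SMAD box occurred in 42.2% of all windows and TGTGNATT in 3.18%, and no match overlapped another. The windows of Nodal and Bmp4 held no match to any of the 3, and sequence outside the 250 bases was not searched. A match is only a run of letters and says nothing of binding.

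**Figure D1:**
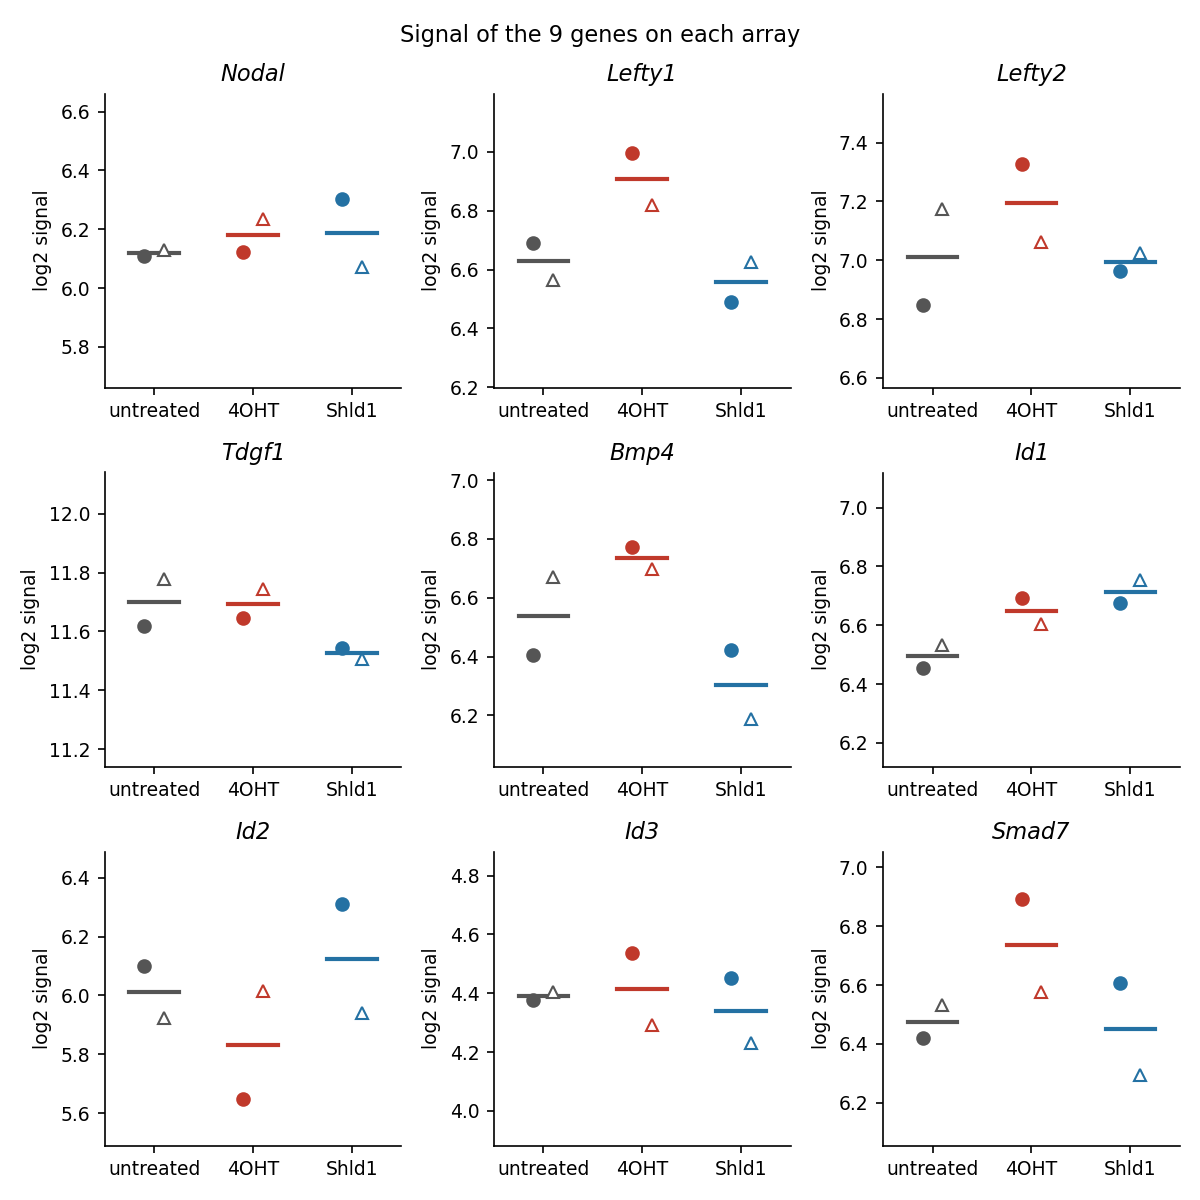
Log2 signal (vertical axes, each spanning 1 log2 unit around the gene's mean) of the 9 genes in untreated, 4OHT and Shld1 cells. Filled circles are replicate 1, open triangles replicate 2 and bars group means (n = 2). Bmp4 and Lefty1 are higher on both 4OHT arrays than on both Shld1 arrays, and Id1 is higher on all 4 treated arrays than on both untreated ones.

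Of the 2 ligand genes among the 9, Bmp4 differed more between the agents than Nodal, whose signal was nearly level in all cells. Bmp4 signal was 6.41 and 6.67 without treatment, 6.77 and 6.70 with 4OHT, and 6.42 and 6.19 with Shld1. Both 4OHT arrays lay above the other 4, and the Shld1 and untreated arrays overlapped. Against Shld1, Bmp4 was 1.35-fold higher with 4OHT on the linear scale (log2 difference 0.43, SE 0.16, 95% interval 0.08 to 0.79; limma, unadjusted p = 0.0213, adjusted p = 0.871). Against untreated cells it differed by 0.20 with 4OHT (SE 0.16; limma, adjusted p = 0.961) and by -0.23 with Shld1 (SE 0.16; adjusted p = 0.999). Leaving out untreated replicate 1 or 2 gave 0.068 or 0.33 with 4OHT and -0.365 or -0.102 with Shld1. The means with 4OHT and Shld1 lay on opposite sides of the untreated mean, and neither difference passed. In RNA from whole cultures, as here, fewer cells that express a gene and less RNA per cell cannot be told apart. Without both arrays of narrower spread, the 4OHT and Shld1 arrays for Bmp4 differed by 0.277, against 0.43 with all arrays. The difference was 0.394 without 4OHT replicate 1 alone and 0.315 without Shld1 replicate 2 alone.

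Nodal itself was 6.11 and 6.13 without treatment, 6.12 and 6.24 with 4OHT, and 6.30 and 6.07 with Shld1. The Shld1 arrays held both the highest and the lowest value, so all groups overlapped. Its range over the 6 arrays was 0.23, and 10.4% of all genes had a smaller one. The largest Nodal difference was 0.07 for Shld1 against untreated (SE 0.15, 95% interval -0.26 to 0.40; limma, adjusted p = 0.999).

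Tdgf1, which encodes the co-receptor that lets Nodal engage its receptors, was 11.62 and 11.78 without treatment, 11.65 and 11.74 with 4OHT, and 11.54 and 11.51 with Shld1. Both Shld1 arrays lay below the other 4, and the 4OHT arrays lay between the untreated ones. The difference from untreated was -0.17 with Shld1 (SE 0.14, 95% interval -0.49 to 0.14; limma, adjusted p = 0.999) and -0.004 with 4OHT (adjusted p = 0.999). Between 4OHT and Shld1 it was 0.17 (SE 0.14, adjusted p = 0.933). With an intensity trend in limma the SE was 0.077. The unadjusted p was then 0.0415 for Shld1 against untreated (adjusted p = 0.999) and 0.0461 between the agents (adjusted p = 0.832).

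The Lefty genes, feedback inhibitors and sensitive targets of Nodal, differed in how cleanly the arrays separated. Lefty1 signal was 6.69 and 6.57 without treatment, 7.00 and 6.82 with 4OHT, and 6.49 and 6.62 with Shld1. Both 4OHT arrays were above the other 4 arrays, and the Shld1 and untreated arrays overlapped. Lefty1 was 1.22-fold higher with 4OHT than without (log2 difference 0.28, SE 0.15, 95% interval -0.05 to 0.61; limma, adjusted p = 0.96) and 1.28-fold higher with 4OHT than with Shld1 (0.35, SE 0.15, 95% interval 0.02 to 0.68; unadjusted p = 0.0385, adjusted p = 0.871). Against untreated cells, Shld1 differed by -0.07 (SE 0.15, adjusted p = 0.999).

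Lefty2 signal was 6.85 and 7.17 without treatment, 7.33 and 7.06 with 4OHT, and 6.96 and 7.03 with Shld1. The untreated arrays were 0.33 apart, the largest gap between untreated replicates among the 9 genes, and they enclosed both Shld1 arrays and 1 of the 4OHT arrays. Lefty2 differed by 0.18 with 4OHT (SE 0.17; limma, adjusted p = 0.961), by -0.02 with Shld1 (adjusted p = 0.999) and by 0.20 between the agents (adjusted p = 0.932), whose arrays did not overlap. With 4OHT it was 0.019 without untreated replicate 1, 0.345 without untreated replicate 2, 0.05 without 4OHT replicate 1 and 0.314 without 4OHT replicate 2, and between the agents it was 0.068 or 0.332 without 4OHT replicate 1 or 2. Lefty1 and Lefty2 are closely similar genes. Whether their probe sets pick up each other's transcripts was not tested.

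Smad7 encodes an inhibitory SMAD that blocks the type I receptors of both branches. Its signal was 6.42 and 6.53 without treatment, 6.89 and 6.58 with 4OHT, and 6.61 and 6.30 with Shld1. Both 4OHT arrays were above both untreated arrays, replicate 2 by as little as 0.04, and 1 Shld1 array lay above the lower 4OHT array. The difference from untreated was 0.26 with 4OHT (SE 0.17, 95% interval -0.12 to 0.64; limma, adjusted p = 0.961) and -0.03 with Shld1 (SE 0.17, adjusted p = 0.999). With 4OHT it was 0.102 without 4OHT replicate 1 and 0.417 without 4OHT replicate 2. Between the agents it was 0.285 (SE 0.17, adjusted p = 0.897), and -0.03 without both arrays of narrower spread.

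The 3 Id genes did not follow one pattern. Id1 signal was 6.46 and 6.53 without treatment, 6.69 and 6.61 with 4OHT, and 6.68 and 6.75 with Shld1. All 4 treated arrays lay above both untreated arrays, and the 2 agents overlapped. Id1 differed from untreated by 0.16 with 4OHT (SE 0.14, 95% interval -0.16 to 0.47; limma, adjusted p = 0.961) and by 0.22 with Shld1 (SE 0.14, 95% interval -0.09 to 0.53; adjusted p = 0.999). These differences share the untreated arrays and are not independent of each other.

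Id2, the gene whose promoter window held GGCGCC, had the widest range of the 9 genes over the 6 arrays, 0.66 on the log2 scale. Its signal was 6.10 and 5.92 without treatment, 5.65 and 6.01 with 4OHT, and 6.31 and 5.94 with Shld1. The gap between replicates, 0.37 within 4OHT and 0.37 within Shld1, was wider than any difference between group means, and every pair of groups overlapped. The differences were -0.18 for 4OHT (SE 0.18; limma, adjusted p = 0.963) and 0.11 for Shld1 (SE 0.18; adjusted p = 0.999), and -0.29 between the agents (adjusted p = 0.905). Id3 signal averaged 0.668 above background, at 4.38 and 4.40 without treatment, 4.54 and 4.29 with 4OHT, and 4.45 and 4.23 with Shld1. Its untreated arrays lay inside the range of each treated group, and the largest Id3 difference was 0.07, between the agents (SE 0.15; limma, adjusted p = 0.984).

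**Figure D2:**
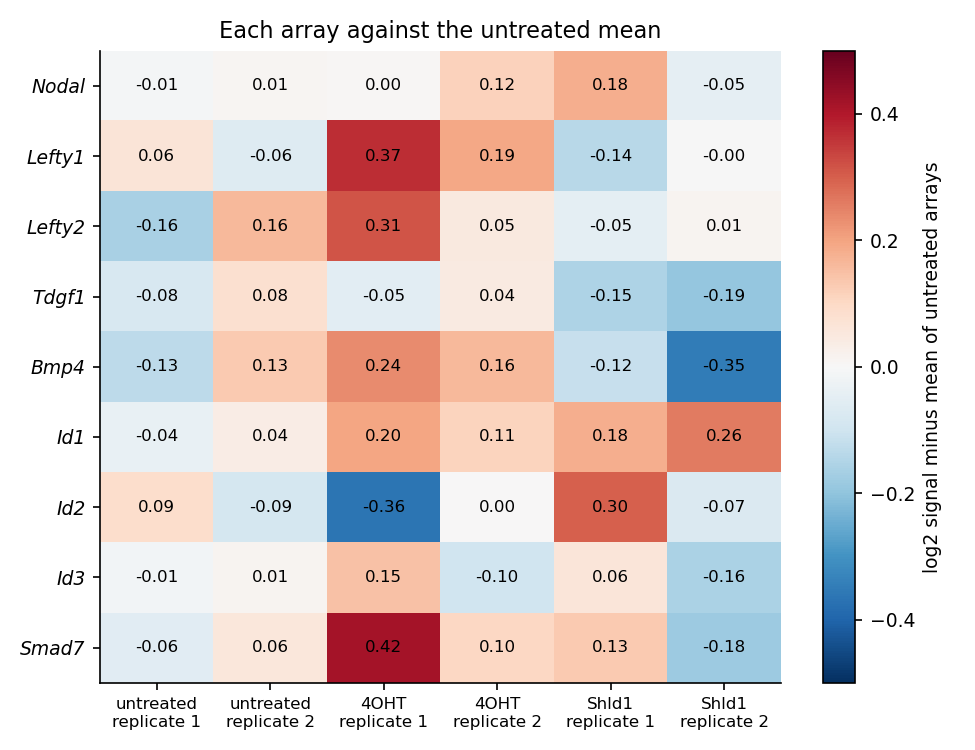
Log2 signal of each gene (rows) on each array (columns) minus the mean of the 2 untreated arrays, printed in each cell and coloured from -0.5 (blue) to 0.5 (red). The 4OHT replicate 1 column runs from -0.36 for Id2 to 0.42 for Smad7, and only Id1 is positive on all 4 treated arrays by 0.11 or more.

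The extreme values of the 9 genes fell mostly on the 2 arrays of narrower signal spread. As the map of differences from the untreated mean shows, 4OHT replicate 1 held the highest value of 5 of the 9 genes (Lefty1, Lefty2, Bmp4, Id3 and Smad7) and the lowest of 1 (Id2). Among all 12841 genes above background that array held the highest value for 15.8% and the lowest for 28.6%. Shld1 replicate 2 held the lowest value of 5 genes (Nodal, Tdgf1, Bmp4, Id3 and Smad7) and the highest of 1 (Id1). Among all genes above background it held the lowest value for 28.8% and the highest for 12.7%. The part of the narrower spread in the differences of the 9 genes was not tested beyond leaving these arrays out. Relative to the untreated mean, the 9 genes had a median of 0.20 on 4OHT replicate 1 and 0.10 on replicate 2, and of 0.06 and -0.07 on the Shld1 arrays, where the median over all genes ran from -0.0158 to -0.00186 on the treated arrays.

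**Figure D3:**
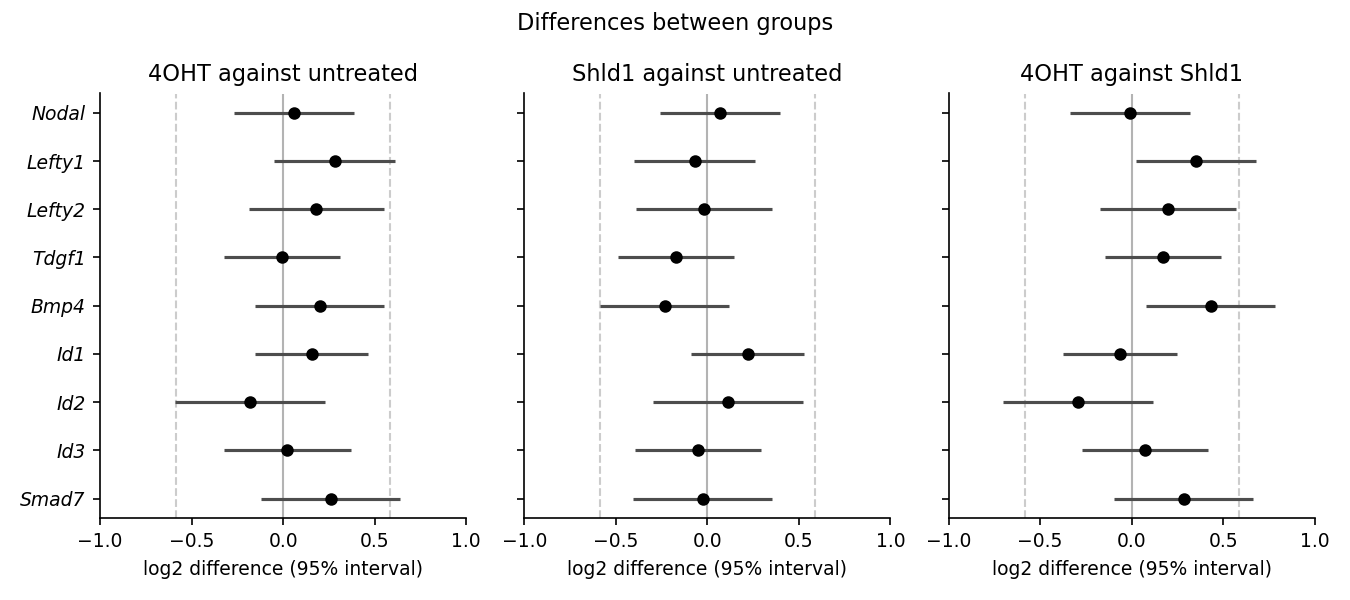
Log2 difference of the 9 genes (points) with 95% intervals from limma (lines) in each comparison, n = 2 arrays per group. Solid vertical lines mark 0 and dashed lines 1.5-fold. Only the intervals of Lefty1 and Bmp4 in 4OHT against Shld1 leave out 0, before any adjustment.

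None of the 27 differences (9 genes in 3 comparisons) passed limma's adjusted p threshold of 0.05. In 4OHT against untreated, 0 of 9 genes were called where the share over all genes was 0%, and 0 of 9 had an unadjusted p under 0.05 where the share was 4.99%. With 4OHT, 7 of the 9 genes had a positive difference, with a median of 0.155 on the log2 scale against -0.01 over all genes, of which 47.8% were positive. Under quantile normalization Tdgf1 turned positive and Id3 negative, and under centring on the 75th percentile Tdgf1 turned positive. Without both arrays of narrower spread the median was 0.10. The groups did not overlap for 4 of the 9 genes (Lefty1, Bmp4, Id1 and Smad7, each higher), where the share over all genes was 37.7%, 17.3% in that direction. In Shld1 against untreated, 0 of 9 had an unadjusted p under 0.05 (4.34% over all genes, and 0% called). Here 3 differences were positive and 6 negative, where 48.9% of all genes were positive. The median was -0.03 against -0.004 over all genes. Lefty2 and Smad7 turned positive under both other scalings, and the median without both arrays of narrower spread was 0.06. Groups did not overlap for Tdgf1, lower, and Id1, higher, 2 of 9 genes against 32.5% of all genes.

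In 4OHT against Shld1, at the same dose of 1 µM, 2 of 9 genes (Lefty1 and Bmp4) had an unadjusted p under 0.05, both higher with 4OHT, where the share over all genes was 5.6% and 2.5% in that direction. None was called after adjustment (limma, 0% of all genes). The median of the 9 was 0.17, against -0.004 over all genes. Of the 9 differences 6 were positive, where 49.1% of all genes were positive, and Nodal turned positive under both other scalings. Without both arrays of narrower spread the median was -0.03, with 4 of 9 positive. Groups did not overlap for Lefty1, Lefty2, Tdgf1 and Bmp4, each higher with 4OHT, 4 of 9 genes against 30.5% of all genes and 14.9% in that direction. Bmp4 lost its unadjusted p under 0.05 without 4OHT replicate 1 (limma, unadjusted p = 0.0866, adjusted p = 0.999), without Shld1 replicate 2 (0.108, adjusted p = 0.708) and without both (0.206, adjusted p = 0.762). Lefty1 lost it without 4OHT replicate 1 (limma, unadjusted p = 0.164, adjusted p = 0.999), Shld1 replicate 1 (0.129, adjusted p = 0.588) or either untreated array (0.0662, adjusted p = 0.999), and without both arrays of narrower spread (0.0915, adjusted p = 0.719). Lefty1 also lost it under centring on the 75th percentile (limma, unadjusted p = 0.0558, adjusted p = 0.963), array weights (0.0592, adjusted p = 1) and the replicate block (0.0589, adjusted p = 0.999), and with only the 2 groups compared (0.0662, adjusted p = 0.999), under each of which Bmp4 kept an unadjusted p under 0.05. This comparison uses the same 4OHT and Shld1 arrays as the other 2, so its values add no independent evidence to them.

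All 27 intervals lay within 2-fold, and 19 of 27 lay within 1.5-fold: 6 of 9 for 4OHT, 8 of 9 for Shld1 and 5 of 9 between the agents. Over all genes, 98.5% to 98.8% of intervals lay within 2-fold, and 72.1%, 74.3% and 71.6% within 1.5-fold in these comparisons. The widest bound was 0.79, for Bmp4 between the agents, or 1.72-fold on the linear scale. For Lefty1 and Smad7 with 4OHT the intervals reached up to 1.53-fold and 1.56-fold over untreated cells, and for Id2 down to 0.663 of the untreated signal. Each interval stands for 1 gene, with no adjustment for multiple genes. Like the p-values, the intervals measure only the spread between these arrays, which may be technical.

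The rest of the pathway was described from 92 other genes of Nodal and BMP signalling with a measured probe set, of which 71 lay above background. These genes were grouped in lists by role, which overlap, so the list sizes add up to more than 92. No gene of these lists was called in any comparison (limma, 0 higher and 0 lower after adjustment). In 4OHT against untreated, 56 of the 92 were higher and 7 (7.61%) had an unadjusted p under 0.05, where the share over all genes was 4.99%. In Shld1 against untreated, 47 were higher and 4 (4.35%) had an unadjusted p under 0.05, against 4.34% of all genes. Between the agents 49 were higher with 4OHT and 7 (7.61%) had an unadjusted p under 0.05, against 5.6% of all genes. Over all genes, 47.8%, 48.9% and 49.1% were higher in these comparisons. The medians of the 92 were 0.03, 0.004 and 0.02, against -0.01, -0.004 and -0.004 over all genes. Groups did not overlap for 34.8%, 34.8% and 26.1% of the 92, against 37.7%, 32.5% and 30.5% of all genes. The genes described next are those of the 92 with an unadjusted p under 0.05. They were picked by p from these same values, so the separation of their groups adds no evidence.

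Of the 14 other BMP ligand genes measured, 7 were above background. Bmp8b, a BMP ligand of extraembryonic ectoderm, was 4.01 and 3.93 without treatment, 4.65 and 4.28 with 4OHT, and 4.26 and 4.87 with Shld1. All 4 treated arrays lay above both untreated arrays, with differences of 0.50 (SE 0.21) for 4OHT and 0.60 (SE 0.21) for Shld1 (limma, adjusted p = 0.96 and 0.999). Gdf5, a ligand of joint formation, was 4.34 and 3.81 with 4OHT and 3.76 and 3.43 with Shld1 (0.48, SE 0.20, adjusted p = 0.871 in limma). Bmp3, a ligand that opposes other BMPs, was 3.44 and 3.75 with 4OHT and 3.90 and 4.14 with Shld1 (-0.43, SE 0.17; limma, adjusted p = 0.871). Gdf5 and Bmp3 each fell below the background of 3.71 on at least 1 array, and the part of background in their differences was not tested. The 8 measured Nodal branch ligands and co-receptors had medians of 0.11, 0.06 and 0.05 in the 3 comparisons, and the 6 ligand-processing genes of 0.07, -0.004 and 0.01. Neither list held a gene with an unadjusted p under 0.05.

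Among 13 receptor genes, Bmpr1a, which encodes a type I receptor of BMP4, was 6.63 and 6.78 without treatment, 6.62 and 6.87 with 4OHT, and 6.36 and 6.19 with Shld1. Both Shld1 arrays were below the other 4, as they were for Tdgf1. The difference was -0.43 for Shld1 against untreated (SE 0.16; limma, adjusted p = 0.999) and 0.47 for 4OHT against Shld1 (SE 0.16, adjusted p = 0.871). Acvr2b, a type II receptor of activin and Nodal, was 6.32 and 6.35 without treatment and 5.99 and 6.01 with 4OHT, and the Shld1 arrays lay between, at 6.26 and 6.16. Its difference with 4OHT was -0.34 (SE 0.14; limma, adjusted p = 0.96). The receptors as a list had medians of -0.01, -0.08 and -0.04.

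Of 13 SMADs and nuclear partners, all above background, 3 were higher and 10 lower with Shld1 (median -0.09 against -0.004 over all genes), and 7 were higher with 4OHT. Over all genes, 48.9% were higher with Shld1 and 47.8% with 4OHT. Shld1 replicate 2 held the lowest value for 28.8% of all genes above background, and its part in these counts was not tested. Zfp423, a zinc finger partner of BMP SMADs, was 6.33 and 6.40 without treatment, 6.79 and 6.75 with 4OHT, and 6.47 and 6.39 with Shld1. Both 4OHT arrays stood above the other 4, as for Bmp4 and Lefty1, by 0.40 over untreated (SE 0.14; limma, adjusted p = 0.96) and by 0.34 over Shld1 (SE 0.14, adjusted p = 0.871). Eomes, a T-box factor of the primitive streak and also one of the mesoderm markers, was 4.46 and 4.76 without treatment and 4.24 and 4.20 with Shld1 (-0.39, SE 0.15; limma, adjusted p = 0.999). In the same comparison the array means of the mesoderm marker list were 3.81 and 3.88 without treatment and 3.79 and 3.94 with Shld1.

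Among 19 measured inhibitors, the secreted BMP antagonist gene Chrd was 4.03 and 3.69 without treatment and 4.50 and 4.13 with 4OHT (0.46, SE 0.19; limma, adjusted p = 0.96). Grem1, another secreted BMP antagonist, was 4.13 and 4.01 with 4OHT and 3.48 and 3.77 with Shld1 (0.44, SE 0.16; limma, adjusted p = 0.871). The groups compared did not overlap, but 1 untreated array for Chrd and 1 Shld1 array for Grem1 lay below the background of 3.71. The part of background in these differences was not tested. The list medians were 0.04, 0.03 and 0.07.

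Otx2, a homeobox gene that responds to Nodal, was the one gene of the 9 measured further Nodal targets with an unadjusted p under 0.05. It was 7.67 and 7.61 without treatment, 6.93 and 7.28 with 4OHT, and 7.53 and 7.52 with Shld1, so that both 4OHT arrays were the lowest. Lefty1, a Nodal target too, was highest on those same 2 arrays. Otx2 differed by -0.54 from untreated (SE 0.16; limma, adjusted p = 0.96) and by -0.42 from Shld1 (SE 0.16, adjusted p = 0.871).

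Of the 15 further BMP targets, Msx2 and Tfap2a had an unadjusted p under 0.05. Msx2, a homeobox gene induced by BMP, was 4.96 and 5.15 without treatment, 4.58 and 4.20 with 4OHT, and 4.81 and 4.72 with Shld1. Both 4OHT arrays were the lowest and the Shld1 arrays lay between, with differences of -0.66 for 4OHT (SE 0.17; limma, adjusted p = 0.96) and -0.37 between the agents (SE 0.17, adjusted p = 0.888). Tfap2a, a factor of surface ectoderm and neural crest, was 3.53 and 3.48 without treatment, 4.18 and 4.13 with 4OHT, and 4.08 and 3.91 with Shld1. All 4 treated arrays were above both untreated ones, by 0.65 (SE 0.14) and 0.49 (SE 0.14; limma, adjusted p = 0.96 and 0.999). The untreated signal was below the background of 3.71, and the part of background in these differences was not tested. The list medians were 0.06, 0.03 and 0.002.

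**Figure D4:**
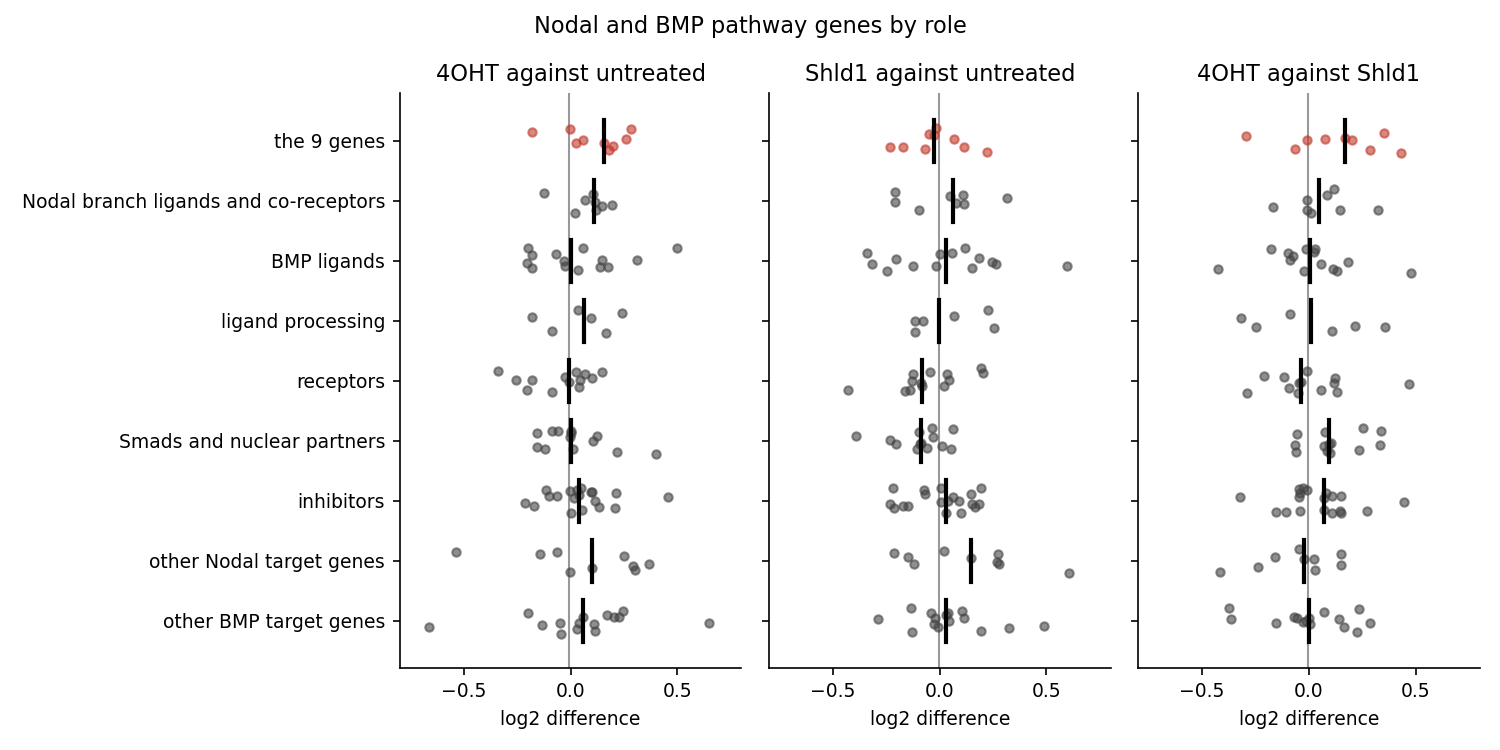
Log2 difference of each gene (points; random vertical offset) by role in the pathway, with the list median (black bar) and the median over all genes (grey line), for the 3 comparisons. The 9 genes (red) have medians of 0.155, -0.03 and 0.17, and the points farthest from 0 are Msx2 (-0.66) and Tfap2a (0.65) in 4OHT against untreated.

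The profile most like that of Id2, the gene of the 9 with the widest range, belonged to Syt7, a synaptotagmin gene. Likeness was the root mean square distance over the 6 arrays between profiles centred on their own means, over 12840 genes above background. Syt7 lay at 0.0228, Gm5617 at 0.039 and Gpn1, a GTPase gene, at 0.0406, against a median of 0.216 over all genes compared. Syt7 was 4.62 and 4.46 without treatment, 4.21 and 4.58 with 4OHT, and 4.81 and 4.46 with Shld1. Id2 was picked for its range, and Syt7, Gm5617 and Gpn1 for their small distance to it. Their distances below the median, and replicate gaps like those of Id2, therefore follow from the search and add no evidence. The profiles share the same arrays and their normalization. Within the 9 genes, the nearest gene to Id2 was Nodal, at 0.162, and the nearest to Bmp4 was Smad7, at 0.121. A flat profile would lie 0.2 from Id2 and 0.205 from Bmp4. Nodal was itself nearly flat, 0.08 from its own mean, so its nearness to Id2 shows little likeness.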

How the data were processed

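The authors' deposited table holds log2 signal for 35556 probe sets of a one-colour Affymetrix array on 6 arrays; the log2 scale was read from the values. The sources used here do not state how these values were background-corrected, summarized and normalized. In the submitters' processing notes limma 3.14 is listed, with no role. Values were used as deposited. The platform annotation gave 1 gene symbol to 21789 probe sets, several to 1621 and none to 12146. Of the first, 21698 were matched by their Entrez identifier to a RefSeq gene and took its symbol, whether or not it differed. The brightest probe set per gene left 19938 genes. All were fitted with limma 3.58.1 (R 4.3.3): a mean per group, empirical Bayes moderation without trend, two-sided tests, Benjamini-Hochberg adjustment over all genes, and 3 residual plus 6.77 prior degrees of freedom. The number of arrays limits the precision (median SE 0.16). An exact permutation test of 2 against 2 arrays cannot give a p below 0.333 and was not used. Values are single arrays or means, n = 2. The limma step was tested on simulated data as a check of the code. Its power to detect differences of the size seen here is not reported. The 9 genes and the lists were chosen with earlier results of these data known. The genes named beside the 9 are, per list and comparison, those with the largest positive and negative statistic, of which the text gives those with an unadjusted p under 0.05, a narrowing made after their values were seen, and the 3 genes nearest in profile to the gene of widest range. Listed genes with no probe set of a single symbol were not analysed here. Alternatives covered moderation, normalization, filters, probe sets, weights, blocking and left-out arrays.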

Additional observations from a re-analysis of the deposited data

How the results depend on the processing

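Of 27 differences, 16 kept their sign under all 17 alternatives, and none passed the adjusted threshold under any (lowest adjusted p in limma 0.294, for Bmp4 between the agents without Shld1 replicate 1). The counts of genes called stayed at 0, except that an intensity trend gave 1 gene between 4OHT and Shld1, Snora62 (adjusted p = 0.0304). Only the other scalings and left-out arrays of the groups compared could change the size or sign of a difference. The remaining alternatives left each difference as it was and could change only its SE and p, so they are no check on its sign. The cause of the sign changes below was not tested.

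Under quantile normalization, 4OHT against untreated became 0.012 for Tdgf1 and -0.027 for Id3, Shld1 against untreated 0.028 for Lefty2 and 0.017 for Smad7, and 4OHT against Shld1 0.006 for Nodal. Centring on the 75th percentile gave 0.041 for Tdgf1, 0.017 for Lefty2, 0.009 for Smad7 and 0.003 for Nodal in those comparisons. Without both arrays of narrower spread, 4OHT against untreated became 0.044 for Tdgf1, 0.002 for Id2 and -0.1 for Id3, Shld1 against untreated 0.06 for Id3 and 0.13 for Smad7, and 4OHT against Shld1 -0.159 for Id3 and -0.028 for Smad7.

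Leaving out 1 array at a time, 4OHT against untreated ran from -0.085 to 0.076 for Tdgf1, -0.365 to 0.002 for Id2 and -0.1 to 0.146 for Id3. Shld1 against untreated ran from -0.046 to 0.183 for Nodal, -0.18 to 0.146 for Lefty2, -0.071 to 0.297 for Id2, -0.16 to 0.06 for Id3 and -0.18 to 0.13 for Smad7. The agents differed by -0.123 to 0.107 for Nodal and by -0.05 to 0.197 for Id3. Other differences kept their sign with 1 array left out. Between the agents they ran from -0.479 to -0.11 for Id2 and from 0.127 to 0.443 for Smad7. The Smad7 difference changed sign only without both arrays of narrower spread. Shld1 against untreated ran from -0.254 to -0.094 for Tdgf1 and from -0.365 to -0.102 for Bmp4. The genes at an unadjusted p under 0.05 (995, 866 and 1117 in the 3 comparisons) ranged from 518 to 1634, 469 to 2680 and 707 to 2270 over the alternatives. The extremes were reached without untreated replicate 2 and without 4OHT replicate 2, without the dimmest 40% of genes and without Shld1 replicate 1, and without 4OHT replicate 1 and without Shld1 replicate 1.

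With the replicate number as a block, the counts of genes called stayed at 0 and those at an unadjusted p under 0.05 were 785, 748 and 968. Lefty1 between the agents then had an unadjusted p of 0.0589 (limma) and Bmp4 of 0.0329. Nothing in the labels says that a number pairs arrays, and the replicate differences of the groups correlated across genes at 0.0496, -0.0789 and -0.194. Groups of 2 arrays limit the precision of every value, and the signal of Id3 lay only 0.668 above background.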
